A study of Mus musculus with 9 samples.

Results

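Transcript levels of 38 genes of the NRF2, glutathione and thioredoxin systems were followed in macrophages of 3 Stat6 genotypes. The genes were chosen by name, as the regulators of the antioxidant response and the enzymes that make and use glutathione, thioredoxin and NADPH. Earlier results of these data were known when they and the further lists below were chosen, so counts and shares over them are descriptions. The members were 38 of the 55401 genes in the deposited count table. Of these, 37 passed the filter on low counts that left 13501 genes to be tested. The exception was Gsta4, a transferase for lipid aldehydes, which had 0 to 2 counts per library.

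The samples were poly(A) RNA of primary mouse peritoneal macrophages, drawn into the cavity with Thio (thioglycollate), an irritant, and harvested for RNA once they had briefly adhered in DMEM with 10% serum. The groups were SE (Stat6S807E/S807E), SA (Stat6S807A/S807A) and WT, with n = 3 libraries each and the labels SE1 to SE3, SA1 to SA3 and WT1 to WT3. In the mutants, Ser807 of STAT6, the transcription factor of interleukin-4 signalling, is replaced on both alleles, as the genotype labels give it. Glutamate (S807E) puts a negative charge there, as a phosphate would, and alanine (S807A) cannot be phosphorylated. No treatment, age or sex of the mice is given in the labels used here, and nothing says that the 3 libraries of a genotype came from separate animals. The p-values therefore measure the spread between these libraries.

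NRF2, the product of Nfe2l2, is held at a low level by KEAP1, which passes it on for degradation. Oxidants and electrophiles modify KEAP1, and NRF2 then accumulates and binds antioxidant response elements near genes for glutathione synthesis, thioredoxin reduction, NADPH supply and detoxification. The main control thus acts on the protein, which RNA does not show. Macrophages use these systems to withstand the oxidants of their own NADPH oxidase.

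Levels are given as CPM, counts scaled to a common library size over the tested genes after TMM, a correction for differences in library make-up. The libraries held 17286617 to 24618608 counts, so that 3 counts are worth 0.122 to 0.174 CPM. Stat6 itself was read at 291, 284 and 312 CPM in SE, 195, 199.5 and 199.8 CPM in SA, and 198, 201 and 187 CPM in WT, so SE stood 1.51-fold above WT (edgeR adjusted p = 6.27e-06). A count per gene does not show the substitution itself and so cannot check the labels. All 12 macrophage core markers were tested, and their summed level was 23760 to 26740 CPM in SE, 24350 to 25080 CPM in SA and 23110 to 28720 CPM in WT, most of it Lyz2 and Csf1r. Of the 12, 3 rose in SA against WT, 25% against 1.97% of all tested genes. In SE against WT 2 rose and 3 fell, 16.7% and 25% against 2.35% and 2.69%. In SE against SA 3 fell (Cd14, Fcgr1 and C1qa), 25% against 5.42%, so core markers were not even across genotypes. Marker lists of other cells also differed. The mesothelial and fibroblast list of 13 genes, of which 5 were tested and Msln, Wt1 and Krt19 were at 0, summed to 8.79 to 12.9 CPM in SE, 43.2 to 49.2 CPM in SA and 4.39 to 6.33 CPM in WT. Of the 5, 4 rose in SA against WT, 80% against 1.97% of all tested genes. In SE against WT 2 rose, 40% against 2.35%, and in SE against SA 4 fell, 80% against 5.42%. The neutrophil list of 9 genes, of which 3 were tested and Ly6g and Retnlg were at 0, summed to 45.4 to 47.6 CPM in SE, 36.9 to 40.4 CPM in SA and 54.4 to 62.4 CPM in WT, most of it Mmp8. The endothelial and adipocyte list of 7 genes, with 2 tested and none at 0 in all libraries, summed to 25.1 to 26.4 CPM in SE, 17.3 to 19.8 CPM in SA and 20.8 to 25.7 CPM in WT. The part of these cells in the results was not tested. In bulk samples, fewer cells of a type and less RNA per cell cannot be told apart. Along the third principal component of all tested genes, which held 14.6% of the variance, SE3 and WT2 lay on one side and SE2 and WT1 on the other, so results are also given without these pairs of libraries.

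The promoters of 3 members are shown first, because Gstm1, Gclm and Me1 stand for the falls described below in transferases, glutathione synthesis and NADPH supply. They are from RefSeq on GRCm38.p6, 5′ to 3′ on the gene's strand, with 200 bases before and 20 after the annotated start. Capitals mark a match to the core of the antioxidant response element, TGACNNNGC, or to a spaced STAT6 site, TTCNNNNGAA, searched on both strands. The Gstm1 window (chr3:108017954-108018173, minus strand) is the upstream one of its entries, the Gclm window is chr3:122245357-122245576 (plus strand), and the Me1 window is chr9:86695895-86696114 (minus strand).
Gstm1: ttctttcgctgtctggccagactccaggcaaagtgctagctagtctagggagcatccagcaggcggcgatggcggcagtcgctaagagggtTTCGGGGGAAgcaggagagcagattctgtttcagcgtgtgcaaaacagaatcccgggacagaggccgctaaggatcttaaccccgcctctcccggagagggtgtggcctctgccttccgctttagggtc
Gclm: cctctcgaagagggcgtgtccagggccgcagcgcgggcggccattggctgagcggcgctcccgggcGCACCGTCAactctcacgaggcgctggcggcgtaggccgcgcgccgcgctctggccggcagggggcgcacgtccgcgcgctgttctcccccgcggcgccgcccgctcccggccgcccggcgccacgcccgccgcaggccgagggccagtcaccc
Me1: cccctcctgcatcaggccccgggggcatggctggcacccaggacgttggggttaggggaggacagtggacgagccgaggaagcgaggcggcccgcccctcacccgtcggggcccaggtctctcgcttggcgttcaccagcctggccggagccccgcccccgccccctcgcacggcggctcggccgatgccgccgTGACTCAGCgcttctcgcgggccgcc
The Gstm1 window held a STAT6-site match starting at position -109 from the start and no element core. In Gclm an element core began at -134, on the opposite strand. The Me1 core began at -6 and shares its first 7 bases with an AP-1 site, TGANTCA. Over the full RefSeq windows of 250 bases before to 50 after the start, 33 of the 38 members had an entry, 43 entries in all. An element core was found in 11 entries, 25.6%, each of another member, against 12.4% of all 32851 windows. Besides Gclm and Me1 the members with a core were Nfe2l2, Mgst1, Prdx1, Srxn1, Txnrd1, Sod1, G6pdx, Pgd and Blvra. A spaced STAT6 site was found in 3 entries, 6.98%, against 6.95% of all windows, and these belonged to Gstm1, Pgd and Blvrb. The AP-1 site stood in 5 entries, 11.6%, against 7.81% of all windows. These are matches of letters and show no binding.

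Per kilobase of annotated exon, the members spanned a wide range of levels. In WT the highest was Gpx1, the main cytosolic peroxidase that uses glutathione, at 478 ± 44.2 CPM per kb (SD, n = 3). Prdx1, an abundant peroxiredoxin, followed at 302 ± 21.2 CPM per kb and Taldo1, transaldolase of the pentose phosphate pathway, at 285 ± 4.82 CPM per kb, and these neighbours did not differ beyond their spread. Then came Esd at 132 ± 5.44, Txn1 at 131 ± 7.41, Cat at 124 ± 1.86 and Gpx4 at 108 ± 5.60 CPM per kb, of which Txn1 lay within the spread of its neighbours Esd and Cat. The lowest tested members were Me1 at 2.62, Gss at 1.98, Slc7a11 at 1.73 and Mgst2 at 0.586 CPM per kb. Together the 38 members took 0.674% to 0.701% of all counts in SE, 0.681% to 0.705% in SA and 0.717% to 0.725% in WT. The mutants' ranges overlapped each other and lay below that of WT.

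**Figure D1:**
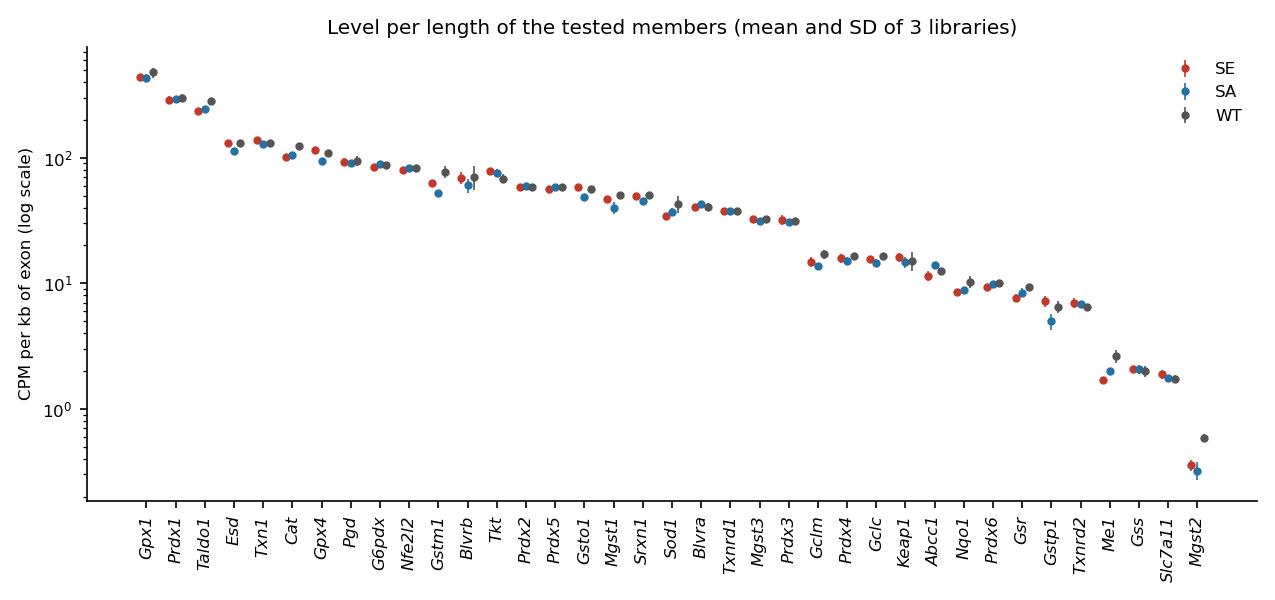
Level per kilobase of exon, as CPM per kb on a log axis, of the 37 tested members in order of their WT level. Points are means and bars the SD of 3 libraries for SE, SA and WT. Gpx1 is highest and Mgst2 lowest, and the genotypes lie close together beside the range between genes.

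In SA against WT, 7 members fell and none rose. They were Gstm1, Mgst1 and Mgst2, which are glutathione transferases, Gclm of glutathione synthesis, Taldo1 of the pentose phosphate pathway, Cat, which is catalase, and Esd, an esterase. Apart from Gstm1 and the scarce Mgst2, which were 1.49-fold and 1.82-fold lower in SA, the falls were of 1.16-fold to 1.27-fold. The 7 of 37 are 18.9% of the tested members, against 2.1% of all tested genes called as fallen and 1.97% called as risen (edgeR quasi-likelihood test, adjusted p under 0.05). At an unadjusted p under 0.05, 2 members were higher and 16 lower, and DESeq2 called 0 risen and 6 fallen. The log2 change was negative for 28 of the 37, 75.7%, against 49.6% of all tested genes, with a median of -0.13 against 0.001. In 13 members every SA library lay below every WT library, against 9.71% of all tested genes, and in none above, against 9.6%. The count of calls rests on few libraries. It was 1, Gstm1, without SA1 or without WT3, 2 without SA3, and 4 without SA2 or without WT1. Scaling by library totals alone also left 4. Without SE3 and WT2 there were 2 risen and 8 fallen, and without SE2 and WT1 there were 3 fallen.

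In SE against WT, 4 members fell and none rose. These were Me1, malic enzyme, which supplies NADPH, with Cat, Taldo1 and Gstm1. Me1 was 1.55-fold lower in SE and the others 1.2-fold to 1.24-fold. The 4 of 37 are 10.8%, against 2.69% of all tested genes called as fallen and 2.35% called as risen. At an unadjusted p under 0.05, 1 member was higher and 9 were lower, and DESeq2 called 0 risen and 5 fallen. The log2 change was negative for 26 of 37, 70.3%, against 50.8% of all tested genes, and the median was -0.035 against -0.003. Every SE library lay below every WT library in 9 members, 24.3% against 10.4% of all tested genes, and above in none, against 10.1%. Without WT2 there were 1 risen and 6 fallen, without SE3 and WT2 there were 1 risen and 4 fallen, and without SE2 and WT1 there were 4 fallen. Both mutants were set against the same WT libraries, so these comparisons are not independent of each other.

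In SE against SA, 5 members rose and 1 fell. Gpx4, the peroxidase for lipid hydroperoxides, the transferases Gstm1, Gstp1 and Gsto1, and Esd were higher in SE by 1.14-fold to 1.43-fold. Abcc1, an exporter of glutathione conjugates, was 1.2-fold lower. The shares are 13.5% risen against 4.77% of all tested genes, and 2.7% fallen against 5.42%. All genes gave 644 risen and 732 fallen, and 473 and 925 when scaled by library totals alone. The median change of the members, 0.041, turned to -0.003 with that scaling and to -0.004 without SA2. The median of all tested genes was -0.003, and it was -0.048 with that scaling and -0.004 without SA2. The sign of the members' median thus rests on SA2 and on the scaling, which moved the median of all genes as well. In 7 members every SE library lay above every SA library, against 14.2% of all tested genes, and in 3 (Abcc1, Me1 and G6pdx) below, against 14.1%. The calls fell to 2 without SA1, SA2, SA3 or SE1, to 3 without SE2, to 4 without WT3, and to 4 with library totals alone. Without SE3 and WT2 there were 7 risen and 1 fallen, and without SE2 and WT1 there were 4 risen.

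**Figure D2:**
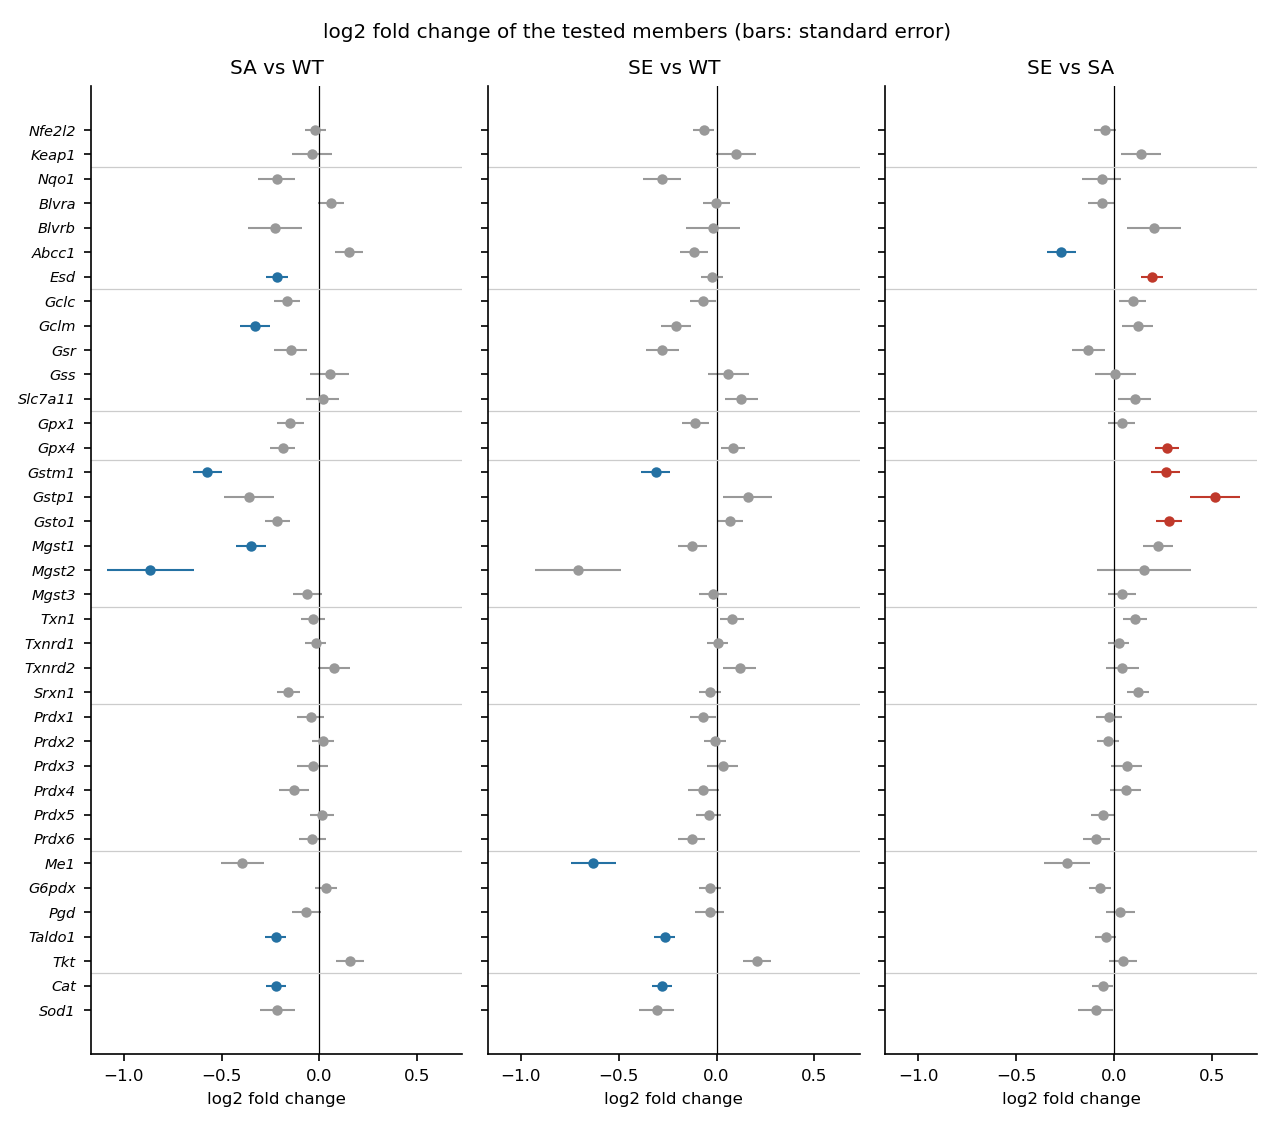
Fitted log2 fold change of the 37 tested members in SA vs WT, SE vs WT and SE vs SA, ordered by role, with bars for the standard error. Blue points fell and red points rose at an adjusted p under 0.05, and grey points were not called. The left panel has 28 members below 0 and 7 calls, all falls, and the right panel has 5 calls above 0 and 1 below.

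NRF2 and its regulator were read at like levels in the 3 genotypes. Nfe2l2 had 314, 307 and 286 CPM in SE, 309, 320.0 and 309 CPM in SA, and 323, 309 and 319 CPM in WT. Its log2 change was -0.02 ± 0.055 (standard error of the fit) in SA against WT (edgeR adjusted p = 0.943) and -0.07 ± 0.055 in SE against WT (adjusted p = 0.58). Keap1 had 73.0, 71.7 and 83.0 CPM in SE, 65.9, 64.5 and 76.5 CPM in SA, and 61.8, 84.8 and 66.5 CPM in WT. The Keap1 ranges overlapped between all genotypes, and SE3, SA3 and WT2 were the high libraries of their groups. An antisense gene, Gm16754, covers 6.17% of the 75-base windows of Keap1, and the strand setting of the counting is not given in the sources used here. The edgeR test called 0 of these 2 genes in any comparison, with none at an unadjusted p under 0.05 and none called by DESeq2.

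Of the genes that make glutathione and keep it reduced, Gclm fell in SA. Glutamate-cysteine ligase, the rate-limiting enzyme of the synthesis, is formed of the catalytic subunit Gclc and the modifier Gclm. Gclm was read at 98.1, 98.4 and 84.2 CPM in SE, 86.5, 90.8 and 80.7 CPM in SA, and 116, 98.3 and 109 CPM in WT. Every SA library lay below every WT library, and SE overlapped with both. SA was 1.25-fold below WT (log2 -0.33 ± 0.077, edgeR adjusted p = 0.0199), whereas SE had a log2 change of -0.21 (adjusted p = 0.146). The call in SA was lost without SA1, SA3, WT1 or WT3 and with library totals alone, with an adjusted p of up to 0.13. SE against WT was called without WT2 (adjusted p = 0.0329).

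Gclc had 58.7, 60.1 and 57.4 CPM in SE, 58.5, 54.7 and 51.4 CPM in SA, and 64.4, 62.8 and 57.7 CPM in WT, and no comparison was called (adjusted p = 0.256 to 0.656). Slc7a11, the light chain of the cystine importer, had 24.8, 28.8 and 25.5 CPM in SE, 23.4, 24.3 and 25.6 CPM in SA, and 25.9, 22.3 and 24.1 CPM in WT, with overlap between all groups. Gss, glutathione synthetase, lay between 10.9 and 13.2 CPM over all libraries. Gsr, the reductase that returns oxidised glutathione to its active form, had 22.7, 19.7 and 21.1 CPM in SE, 21.2, 23.6 and 24.8 CPM in SA, and 24.7, 26.0 and 26.5 CPM in WT. All SE libraries lay below all WT libraries, at an adjusted p of 0.0669.

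Neither glutathione peroxidase was called against WT. Gpx4 had 199, 187 and 207 CPM in SE, 169, 154 and 169 CPM in SA, and 179, 198 and 183 CPM in WT. All SA libraries lay below those of the other genotypes, and SE overlapped with WT. SE was 1.21-fold above SA (log2 0.27 ± 0.063, edgeR adjusted p = 0.0102; 0.0786 without SA2), and SA against WT had a log2 change of -0.19 (adjusted p = 0.132). Of the 75-base windows of Gpx4, 29.8% also occur in other annotated genes, mostly a processed copy, so its reads could be split. Gpx1 lay between 572 and 759 CPM and gave no call. At an unadjusted p under 0.05 both peroxidases were lower in SA than in WT, and DESeq2 called neither.

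The glutathione transferases join glutathione to electrophiles, and of 6 tested members of this group 3 fell in SA against WT, 1 fell in SE against WT and 3 rose in SE against SA. The shares of all tested genes called in the same direction were 2.1%, 2.69% and 4.77%. The log2 changes in SA against WT were negative for all 6, with a median of -0.35, against 49.6% negative among all tested genes. Those in SE against SA were positive for all 6, with a median of 0.24, against 50.6% negative among all tested genes. With library totals alone the counts of sign were 6 of 6 and 5 of 6. Gstm1, the mu-class enzyme ENSMUSG00000058135 (chr3:108012255-108017973, mm10, minus strand), had the smallest adjusted p of all members. It was read at 94.2, 89.95 and 92.3 CPM in SE, 73.4, 74.9 and 82.1 CPM in SA, and 103, 127 and 113 CPM in WT. All 3 genotypes were separate, with SA lowest, SE between and WT highest. SA was 1.49-fold below WT (log2 -0.57 ± 0.074, edgeR adjusted p = 0.000107), and this call held under every alternative run, at an adjusted p of 2.25e-13 to 0.00281. SE was 1.24-fold below WT (adjusted p = 0.0195), a call lost without SE1, SE2 or WT3 and in a fit of only these 2 genotypes (up to 0.084). SE was 1.2-fold above SA (adjusted p = 0.0319), which was lost in 7 alternatives, among them those without SA1, SA2, WT3 or any 1 SE library (up to 0.157). Of its 75-base windows, 11.7% also occur in other annotated genes, such as Gstm3. Mmp8, which makes up most of the neutrophil sum, stood in the same order, averaging 43.2 CPM in SE, 36.3 CPM in SA and 56.4 CPM in WT. Other genes of that list did not: Cxcr2 averaged 1.20 CPM in SE, 1.62 CPM in SA and 0.884 CPM in WT, S100a9 averaged 0.719 CPM in SE, 0.198 CPM in SA and 0.374 CPM in WT, and Ly6g and Retnlg were at 0. The part of such cells in the result was not tested.

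Mgst1, a membrane-bound transferase that also acts on peroxides, was read at 91.8, 96.0 and 93.8 CPM in SE, 70.3, 86.4 and 84.4 CPM in SA, and 98.6, 99.5 and 109 CPM in WT. Here too the 3 genotypes were separate in the order SA, SE, WT. SA was 1.27-fold below WT (log2 -0.35 ± 0.075, edgeR adjusted p = 0.0107), a call lost without SA1 or without WT3 (up to 0.099), and the other comparisons had adjusted p = 0.41 for SE against WT and 0.0691 for SE against SA, which was called without WT2 (down to 0.0319 over all alternatives). Mgst2, its relative with leukotriene C4 synthase activity, was scarce, at 21 to 54 counts per library. It had 1.47, 1.22 and 1.26 CPM in SE, 0.970, 1.33 and 1.29 CPM in SA, and 2.16, 2.35 and 2.001 CPM in WT. Both mutants lay below all WT libraries and overlapped each other. SA was 1.82-fold below WT (edgeR adjusted p = 0.033), while SE against WT had a log2 change of -0.71 ± 0.219 (adjusted p = 0.0742). The call in SA was lost in 10 alternatives (up to 0.179). Among them were leaving out any 1 SA or WT library, a fit with the replicate number as a block, and DESeq2.

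Gstp1 and Gsto1 were called in SE against SA alone. Gstp1, the pi-class enzyme, had 9.90, 11.7 and 11.8 CPM in SE, 8.99, 6.98 and 7.20 CPM in SA, and 9.31, 11.3 and 9.45 CPM in WT. SA lay below the other genotypes in every library. SE was 1.43-fold above SA (log2 0.52 ± 0.127, edgeR adjusted p = 0.0141), which was lost without SA2 or without SA3 (up to 0.0843), and 29.2% of the windows of Gstp1 are shared, mostly with Gstp2, so its reads could be split. Gsto1, the omega-class enzyme, which also reduces mixed disulphides, had 124, 112 and 121 CPM in SE, 95.6, 106 and 92.6 CPM in SA, and 113, 111 and 117 CPM in WT. Again SA was lowest, and SE overlapped with WT. SE was 1.22-fold above SA (edgeR adjusted p = 0.0102), a call lost without SA1, SA3 or SE1 (up to 0.0688), and SA against WT had a log2 change of -0.21 (adjusted p = 0.0885). Mgst3 lay between 32.6 and 37.98 CPM in all libraries and was not called.

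**Figure D3:**
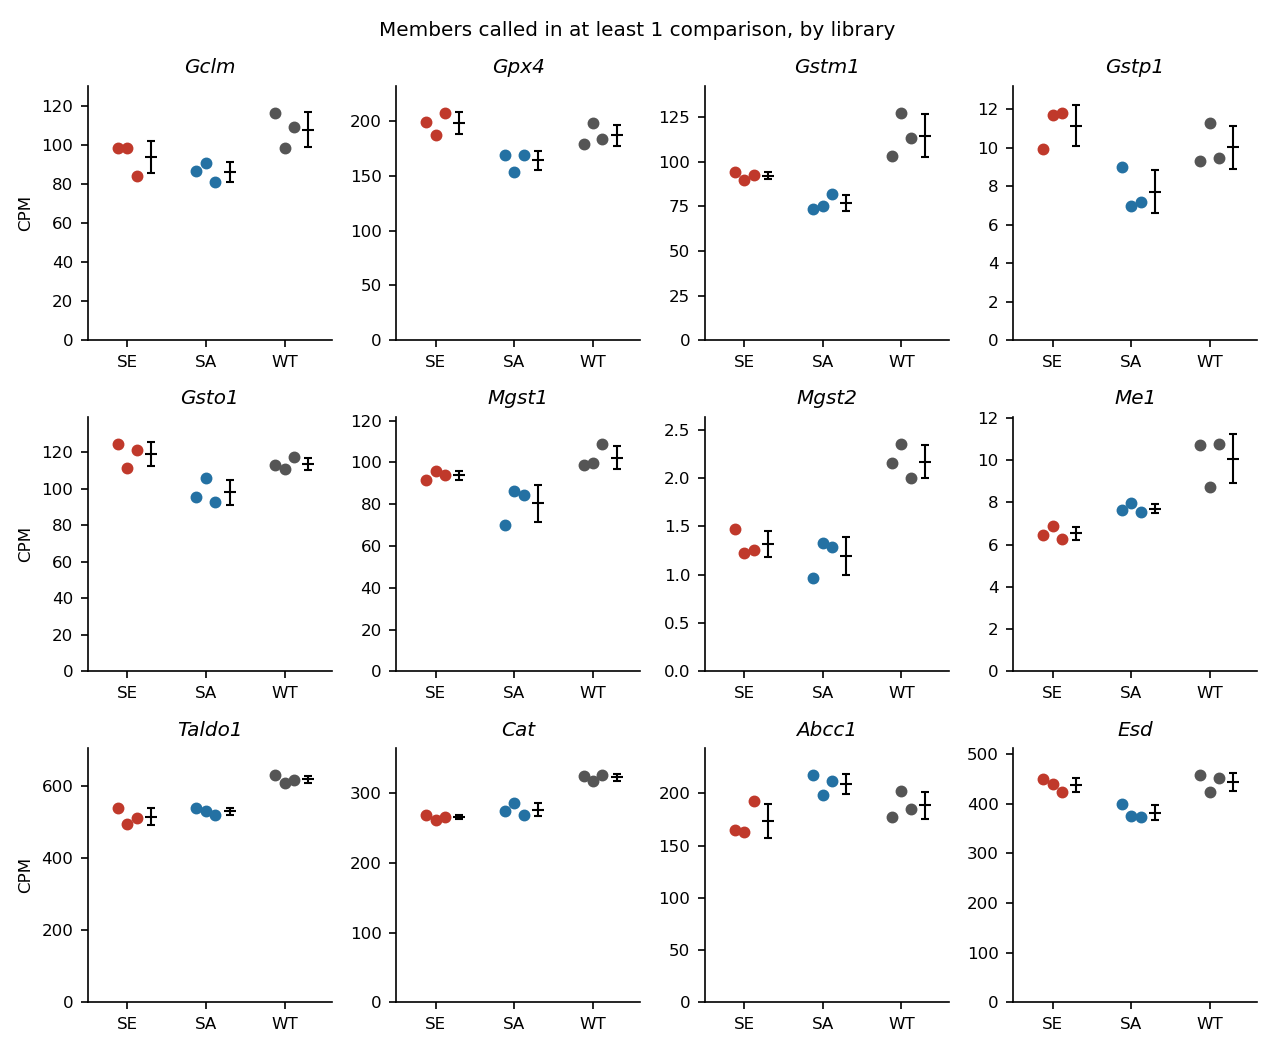
Level in CPM, on axes from 0, of the 12 members called in at least 1 comparison, by library, with SE, SA and WT from left to right. Points are libraries and the bar is the mean and SD of 3. Gstm1 and Mgst1 are lowest in SA and highest in WT, Cat and Taldo1 are lower in both mutants than in WT, and Gpx4, Gstp1, Gsto1 and Esd are lowest in SA.

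The thioredoxin group gave no call. Thioredoxin reduces protein disulphides and peroxiredoxins, its reductases draw on NADPH, and sulfiredoxin restores over-oxidised peroxiredoxins. Txnrd1, the cytosolic reductase and a well-known NRF2 target, had 273, 265 and 269 CPM in SE, 267, 256 and 269.5 CPM in SA, and 276, 263 and 264 CPM in WT, with adjusted p of 0.843 to 0.973. Srxn1, sulfiredoxin, had 141, 131 and 145 CPM in SE, 128, 127 and 128 CPM in SA, and 139, 146 and 142 CPM in WT. All SA libraries of Srxn1 lay below all others, at an adjusted p of 0.175 against WT and 0.215 for SE against SA. Txn1 lay between 131 and 150.3 CPM and Txnrd2 between 26.6 and 33.4 CPM. The edgeR test called 0 of these 4 in each comparison, with 1 lower in SA against WT and 1 higher in SE against SA at an unadjusted p under 0.05, and DESeq2 called none.

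The 6 peroxiredoxins, which remove hydrogen peroxide, gave no call. Their log2 changes ran from -0.13 to 0.07 over the 3 comparisons, with 0 called by edgeR, 0 at an unadjusted p under 0.05 and 0 by DESeq2. The abundant Prdx1 had 920.5, 901 and 804 CPM in SE, 928, 899.9 and 845 CPM in SA, and 987, 859 and 911 CPM in WT. Its libraries overlapped between all genotypes. Prdx2 lay between 169.8 and 186 CPM, Prdx5 between 114 and 132 CPM, Prdx3 between 41.9 and 50.4 CPM, Prdx6 between 42.4 and 50.3 CPM and Prdx4 between 29.8 and 36.3 CPM. Prdx2 shared 8.61% of its 75-base windows with Junb, Tdpx-ps1 and Rnaseh2a, and Prdx5 shared 13.9% with Trmt112. The strands were pooled in these shares.

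Among the enzymes that supply NADPH or feed the pentose phosphate pathway, Me1 and Taldo1 fell in SE against WT and Taldo1 in SA against WT. Me1, cytosolic malic enzyme (ENSMUSG00000032418, chr9:86581371-86695953, mm10, minus strand), had 6.47, 6.87 and 6.28 CPM in SE, 7.63, 7.95 and 7.56 CPM in SA, and 10.7, 8.75 and 10.8 CPM in WT. The genotypes were separate, with SE lowest and WT highest. SE was 1.55-fold below WT (log2 -0.63 ± 0.115, edgeR adjusted p = 0.00324), and the call held under every alternative run (0.000236 to 0.0312). SA against WT had a log2 change of -0.39 ± 0.111 at an adjusted p of 0.0591, and it was called without WT2 and without SE3 and WT2 together (down to 0.00827). Of the Me1 windows, 20% occur in other annotated genes, mostly predicted copies.

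Taldo1, transaldolase (ENSMUSG00000025503, chr7:141392199-141402968, mm10, plus strand), had 540.1, 494 and 511 CPM in SE, 540.1, 530.3 and 519.9 CPM in SA, and 630.0, 610 and 616 CPM in WT. The mutants overlapped each other and lay wholly below WT. SE was 1.2-fold below WT (log2 -0.27 ± 0.054, edgeR adjusted p = 0.00771; 0.0832 without SE2 and WT1), and SA was 1.17-fold below WT (log2 -0.22 ± 0.054, adjusted p = 0.0252). The call in SA was lost without any 1 SA library, WT1 or WT3 and with library totals alone (up to 0.13). Tkt, transketolase, the partner of transaldolase, was not called. It had 577, 545 and 615 CPM in SE, 588, 514 and 578 CPM in SA, and 478, 549.6 and 478 CPM in WT, with adjusted p = 0.326 for SA and 0.116 for SE against WT. It was called as risen in SE without WT2 and with no filter on low counts (down to 0.0128), and in both mutants without SE3 and WT2. G6pdx and Pgd, the dehydrogenases of the oxidative branch, lay between 245 and 277 CPM and between 547 and 677 CPM and gave no call.

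Catalase, which splits hydrogen peroxide in peroxisomes, fell in both mutants. Cat (ENSMUSG00000027187, chr2:103453849-103485160, mm10, minus strand) had 269, 263 and 266 CPM in SE, 276, 286 and 269 CPM in SA, and 325, 317 and 326 CPM in WT. Every mutant library lay below every WT library. This was the member with the smallest spread within genotypes, a pooled SD of 0.031 on the log2 scale. SE was 1.21-fold below WT (log2 -0.28 ± 0.052, edgeR adjusted p = 0.00415), and the call held under every alternative run (up to 0.0349). SA was 1.17-fold below WT (adjusted p = 0.0199), which was lost without SA1, SA3 or WT3 (up to 0.122). Sod1, cytosolic superoxide dismutase, had 137, 136 and 139 CPM in SE, 150.4, 134 and 155 CPM in SA, and 146, 199.5 and 165 CPM in WT. All SE libraries lay below all WT libraries, of which WT2 was the highest, and the log2 change of -0.31 ± 0.089 missed the threshold (edgeR adjusted p = 0.0569). It was called without WT1, without SE2 and WT1 together, with library totals alone, with no filter on low counts and in DESeq2 (down to 0.000508).

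Of the remaining detoxification genes, Esd and Abcc1 were called. Esd, an esterase that also hydrolyses S-formylglutathione, had 450.0, 439.6 and 423 CPM in SE, 399, 375 and 374 CPM in SA, and 458, 424 and 453 CPM in WT. SA lay below both other genotypes, which overlapped. SA was 1.16-fold below WT (edgeR adjusted p = 0.0358) and SE 1.14-fold above SA (adjusted p = 0.0361). Each of these calls was lost in 9 alternatives, among them without any 1 SA library, SE1 or WT3 and with library totals alone (up to 0.2 and 0.157). Without WT1 the first was lost too, and without SE2 the second. Abcc1, the glutathione conjugate exporter MRP1, had 165, 163 and 193 CPM in SE, 217, 199 and 212 CPM in SA, and 177, 203 and 185 CPM in WT. SE lay wholly below SA, and WT overlapped with both. SE was 1.2-fold below SA (edgeR adjusted p = 0.0239), a call lost without SA1, SA3, SE1 or SE2 (up to 0.124).

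Nqo1, the quinone reductase often used as a readout of NRF2 activity, had 13.7, 13.3 and 12.6 CPM in SE, 13.7, 13.6 and 14.2 CPM in SA, and 15.6, 14.4 and 18.0 CPM in WT. All mutant libraries lay below all WT libraries, with log2 changes of -0.22 ± 0.095 in SA (edgeR adjusted p = 0.306) and -0.28 ± 0.097 in SE (adjusted p = 0.115). Without WT2 the change in SE was called, at an adjusted p of 0.0445. Blvra and Blvrb, the biliverdin reductases, lay between 92.3 and 108 CPM and between 148 and 242 CPM. Blvrb had the widest spread within genotypes, a pooled SD of 0.221 on the log2 scale, with 181, 182 and 217 CPM in SE, 166, 148 and 189 CPM in SA, and 160, 242 and 188 CPM in WT. SE3, SA3 and WT2 were its high libraries. Over all tested members the median pooled SD was 0.093, against 0.126 for all tested genes.

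**Figure D4:**
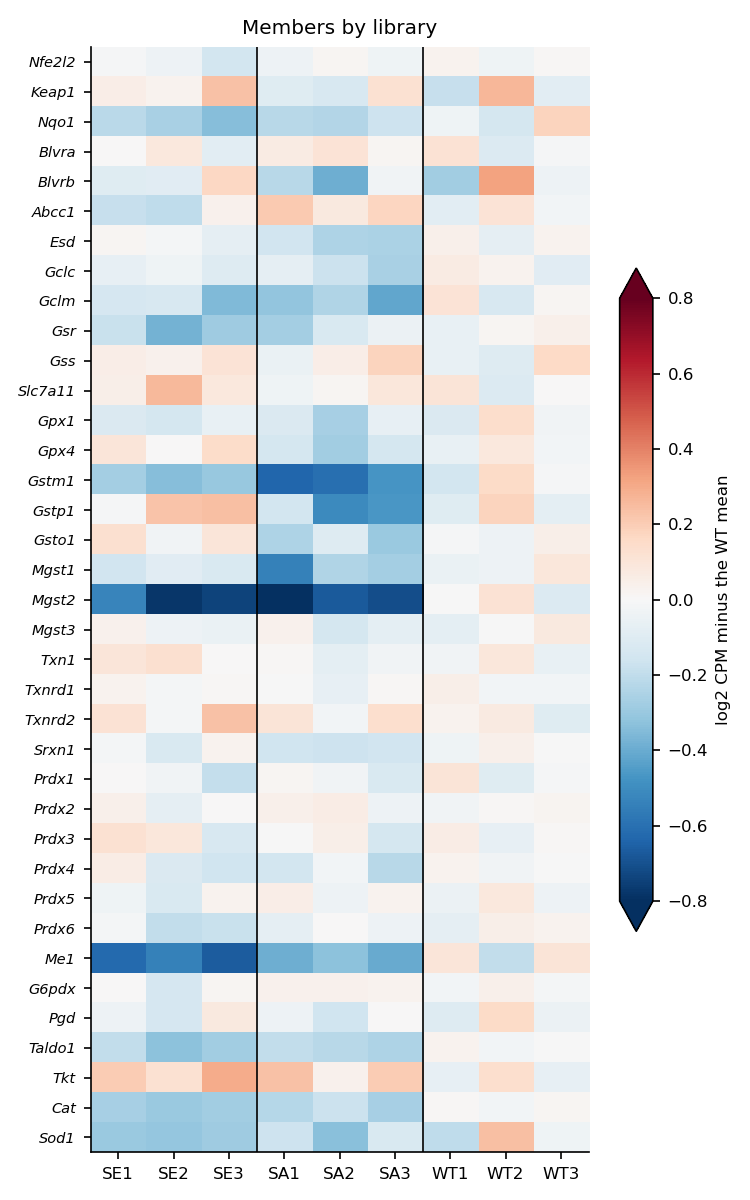
Level of each tested member in each library as log2 CPM minus the mean of the 3 WT libraries, with members in rows by role and the libraries SE1 to SE3, SA1 to SA3 and WT1 to WT3 in columns. Below the WT mean in all 6 mutant libraries are Gstm1, Mgst2, Me1, Taldo1, Cat, Nqo1, Gclc, Gclm, Gsr, Gpx1, Mgst1 and Sod1. Txnrd1 lies close to the WT mean in all 6.

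Further genes of the same pathways, 107 in 6 lists with 90 tested, gave 3 risen and 4 fallen in SA against WT and 6 risen and 6 fallen in SE against WT. SE against SA gave 7 risen and 5 fallen, or 6 and 8 with library totals alone. The shares were 3.33% risen and 4.44% fallen in SA against WT, 6.67% in each direction in SE against WT, and 7.78% risen and 5.56% fallen in SE against SA, to be read beside the shares of all tested genes above. The median log2 changes were -0.032, -0.016 and 0.022. The list of partners and regulators of NRF2 (small MAF proteins, related factors and KEAP1 partners) had 0 of 13 called by edgeR or DESeq2 in any comparison. At an unadjusted p under 0.05, 1 was lower in SA, 1 lower in SE and 1 higher in SE against SA.

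Of 17 further NRF2 targets tested, 3 fell in SA against WT, 17.6% against 2.1% of all tested genes. In SE against WT 1 rose and 2 fell, 5.88% and 11.8% against 2.35% and 2.69%, and in SE against SA 2 rose and 1 fell, 11.8% and 5.88% against 4.77% and 5.42%. Hmox1, heme oxygenase, had 292, 291 and 304 CPM in SE, 265, 253 and 268 CPM in SA, and 296, 317 and 316 CPM in WT, and SA lay below the other genotypes. SA was 1.18-fold below WT (edgeR adjusted p = 0.0165; up to 0.116 without SA1, SA2 or WT3), and SE against SA had a log2 change of 0.17 ± 0.055 (adjusted p = 0.0532; called without WT1 or WT2 and in DESeq2, down to 0.0328). Fth1, the ferritin heavy chain, which has many processed copies in the genome, had 10500, 10780 and 10220 CPM in SE, 8288, 7795 and 8900.0 CPM in SA, and 9317, 12050 and 9757 CPM in WT. It was 1.25-fold lower in SA than in WT (adjusted p = 0.0394, lost in 10 alternatives, among them without any 1 SA library, WT2 or WT3) and, in SE, 1.26-fold above the SA level (adjusted p = 0.0159, lost without SA1, SA2, SE1 or SE2). Ephx1, microsomal epoxide hydrolase, had 50.6, 51.4 and 58.5 CPM in SE, 53.3, 62.9 and 60.7 CPM in SA, and 68.2, 79.1 and 70.9 CPM in WT, with both mutants below WT. SE was 1.36-fold below WT (adjusted p = 0.00365, held under every alternative run). SA was 1.23-fold below WT (adjusted p = 0.0438), a call lost in 9 alternatives. These were library totals alone, a minimum of 5 CPM, and leaving out any 1 SA library, SE1, SE2, WT2 or WT3.

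Trim16 and Osgin1 set SE apart. Trim16, a ubiquitin ligase linked to NRF2 stability, had 10.8, 11.2 and 10.3 CPM in SE, 14.0, 15.8 and 15.01 CPM in SA, and 13.8, 14.6 and 15.5 CPM in WT. SE was 1.36-fold below WT (edgeR adjusted p = 0.00945; up to 0.0768 without SE1 or WT3) and 1.38-fold below SA (adjusted p = 0.00379). Osgin1, an oxidative stress growth inhibitor, had 26.0, 24.3 and 27.8 CPM in SE, 20.4, 19.9 and 19.5 CPM in SA, and 18.4, 22.7 and 21.5 CPM in WT. SE was 1.31-fold above SA (adjusted p = 0.00896) and 1.26-fold above WT (adjusted p = 0.0382), a call that was lost in 10 alternatives, among them without any 1 SA library, SE1, SE3, WT1 or WT3.

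In the glutathione list 23 of 33 genes were tested, with none called in SA against WT by edgeR or DESeq2 (6 lower at an unadjusted p under 0.05) and 2 risen in SE against WT, 8.7% against 2.35% of all tested genes. In SE against SA 2 also rose, 8.7% against 4.77%. Slc3a2, the heavy chain that pairs with the product of Slc7a11 among other transporters, had 437, 413 and 463 CPM in SE, 325, 331 and 328 CPM in SA, and 358, 391 and 367 CPM in WT. The genotypes were separate, with SE highest and SA lowest. SE was 1.33-fold above SA (edgeR adjusted p = 0.000175, held under every alternative run) and 1.18-fold above WT (adjusted p = 0.0266, lost in 8 alternatives, among them without SA1, SE1, SE3, WT1 or WT3). Glrx, glutaredoxin, was 1.2-fold higher in SE than in SA (adjusted p = 0.0123; 0.0863 without SA3). Chac1, which degrades glutathione, was read from few counts, 14, 9 and 11 in SE, 5, 11 and 2 in SA and 5, 1 and 3 in WT. Its call in SE against WT (edgeR adjusted p = 0.0463) was lost in 11 alternatives. Among them were library totals alone, a fit with the replicate number as a block, and leaving out any 1 SE or WT library or SA1. Chac1 passed the filter on low counts mainly through SE, the group where it was high. It is among the 2 genes of this list risen in SE against WT.

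In the list of thioredoxin-related, superoxide dismutase and methionine repair genes, 19 of 20 were tested. There were 2 risen and 1 fallen in SA against WT, 10.5% and 5.26% against 1.97% and 2.1% of all tested genes. In SE against WT there were 1 and 1, 5.26% each against 2.35% and 2.69%. In SE against SA there were 2 and 3, 10.5% and 15.8% against 4.77% and 5.42%. Msrb1, a selenoprotein that repairs oxidised methionine, had 120.0, 113 and 129 CPM in SE, 101, 99.9 and 104 CPM in SA, and 124, 147 and 135 CPM in WT. SA lay below both other genotypes. It was 1.33-fold below WT (edgeR adjusted p = 0.0015, held under every alternative run), and SE was 1.19-fold above SA (adjusted p = 0.0299, lost without any 1 SA library, SE1, SE3 or WT3). Txnip, an inhibitor of thioredoxin, had 259, 250.1 and 268 CPM in SE, 303, 313 and 303 CPM in SA, and 286, 282 and 288 CPM in WT, and was 1.18-fold lower in SE than in SA (adjusted p = 0.00619). Sesn1, a sestrin, was 1.18-fold lower in SE than in WT (adjusted p = 0.0179) and 1.21-fold lower than in SA (adjusted p = 0.00469). The first of these calls was lost without SE1 or WT3 and in a fit of only the 2 genotypes. Txn2, the mitochondrial thioredoxin, was 1.16-fold higher in SE than in SA (adjusted p = 0.0397, lost in 8 alternatives, among them without any 1 SA library, SE1, SE3 or WT3). Nxn, nucleoredoxin, had 37, 22 and 31 counts in SE, 37, 23 and 19 in SA and 15, 6 and 11 in WT. Both mutants were higher than WT, SE by 3.13-fold (adjusted p = 0.00472) and SA by 2.52-fold (adjusted p = 0.0225, lost without SA1, SA2, WT2 or WT3). Sod3, the extracellular dismutase, had 6, 5 and 8 counts in SE, 19, 20 and 22 in SA and 1, 2 and 4 in WT, and was called as risen in SA against WT (adjusted p = 0.000454) and as lower in SE than in SA (adjusted p = 0.0141, lost without SA2, SA3 or SE1). Sod3 passed the filter on low counts only through SA, the group where it was high. It is among the 2 genes of this list risen in SA against WT and the 3 fallen in SE against SA. The mesothelial and fibroblast markers were highest in the same SA libraries, and their part in the Sod3 values was not tested.

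Of 12 further NADPH genes tested, Mthfd2, a mitochondrial folate enzyme, had 22.1, 21.6 and 24.0 CPM in SE, 24.0, 20.1 and 19.5 CPM in SA, and 14.9, 15.4 and 14.7 CPM in WT. It was higher than in WT by 1.51-fold in SE (edgeR adjusted p = 0.00084) and by 1.42-fold in SA (adjusted p = 0.00269), and both calls held under every alternative run. Aldh1l1, a cytosolic folate dehydrogenase, stood in SE 1.34-fold above WT (adjusted p = 0.00883, lost without WT1 or WT3) and 1.29-fold above SA (adjusted p = 0.0135, lost without SA1 or SA2). Idh1, the cytosolic isocitrate dehydrogenase, was 1.16-fold lower in SE than in WT (adjusted p = 0.0302, lost in 9 alternatives, among them without SA1, SA3, SE1, SE3, WT1 or WT3). Of the 6 NADPH oxidase genes, which make superoxide, 2 fell in SE against WT, against 2.69% of all tested genes, and 1 fell in SE against SA, against 5.42%. Cybb, its catalytic chain, had 907, 993 and 918 CPM in SE, 1101, 1157 and 1125 CPM in SA, and 1181, 1130 and 1188 CPM in WT, and SE lay below both other genotypes. SE was 1.24-fold below WT (adjusted p = 0.00298) and 1.2-fold below SA (adjusted p = 0.00557), and both calls held under every alternative run. Ncf1, a cytosolic subunit, was 1.2-fold lower in SE than in WT (adjusted p = 0.00657; 0.0561 without WT3).

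**Figure D5:**
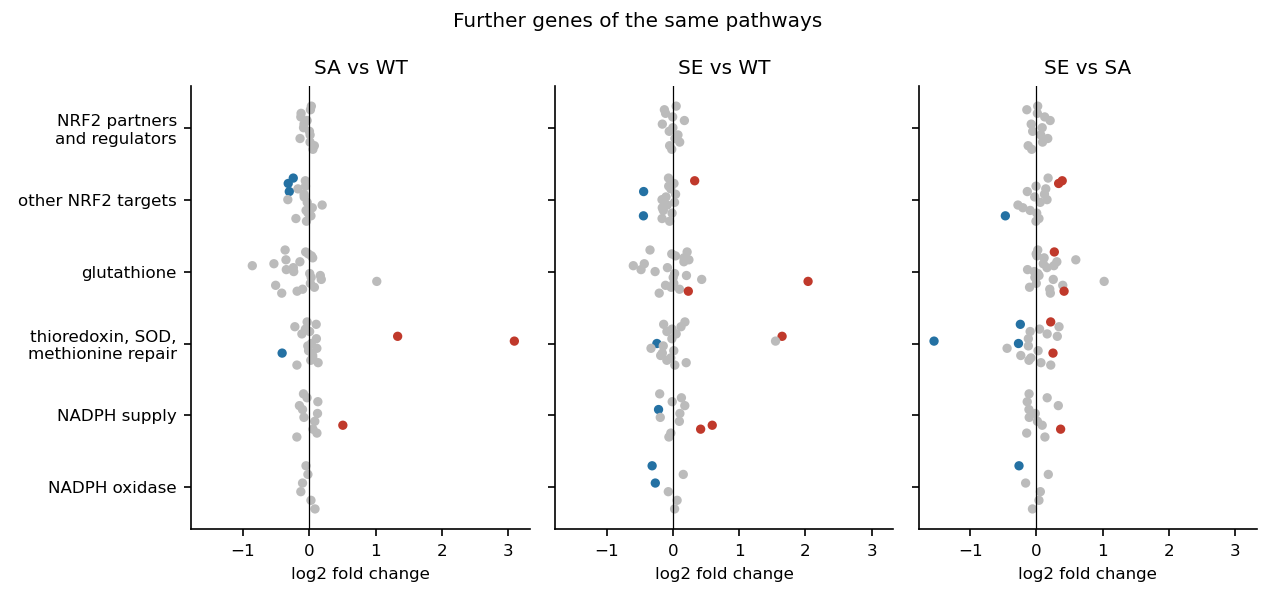
Fitted log2 fold change of the tested genes of the 6 further lists in SA vs WT, SE vs WT and SE vs SA, by list. Blue points fell and red points rose at an adjusted p under 0.05, and grey points were not called. The 13 partners and regulators of NRF2 are all grey. The point farthest right in SA vs WT is Sod3, which passed the filter on low counts only through SA.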

How the data were processed

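Raw read counts per Ensembl gene, as deposited by the authors, were used for all 9 libraries. Per the submitters' processing notes the tools were HISAT2 2.1.0 and featureCounts, on mm10. The featureCounts version, annotation, strand option and treatment of multiply mapping reads were not given in the sources used here. Among 55401 IDs, 55141 matched GENCODE M21, which gave symbols, positions and exon lengths. Library totals were 17286617 to 24618608 counts, and limits at a count of 0 cover counting error only.

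One edgeR 4.0.16 fit in R 4.3.3 held all libraries: filterByExpr on genotype (minimum count 10, minimum total 15), TMM scaling, and a robust quasi-likelihood model of genotype alone, with 6 residual degrees of freedom. The F test of each of the 3 contrasts was 2-sided, and calls needed an adjusted p under 0.05 (Benjamini-Hochberg over the 13501 tested genes). The biological coefficient of variation was 6.75%. Alternatives were library totals as scaling, no filter on low counts, only genes of at least 5 CPM, a fit with the replicate number as a block, a fit of the 2 genotypes compared, each library left out in turn, the pairs WT2 with SE3 and WT1 with SE2 left out, and DESeq2 1.42.0.

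Members and lists were chosen with earlier results of these data known, so counts over them are descriptions. All members are named, the called ones and Nfe2l2, Keap1, Nqo1, Gclc, Gclm, Srxn1, Txnrd1 and Slc7a11 by library, and from each further list Hmox1 and up to 3 called genes in each direction, by size of change. Values per library of members outside this rule (Gsr, Tkt, Sod1, Prdx1 and Blvrb), and the promoters shown, were chosen after values were seen. Replicates of a genotype differed by more than sampling noise (chi-square per degree of freedom 3.61 to 16.1). Marker lists of 11 cell types were read as summed CPM. The lists not given in the report follow. The eosinophil list summed to 21.1 to 28.0 CPM in SE, 22.0 to 26.8 CPM in SA and 25.3 to 28.5 CPM in WT, red cells and platelets (mostly Pf4, which rose in SE against SA at an edgeR adjusted p of 0.0168, with Hba-a2, Hbb-bs and Hbb-bt at 0) to 28.0 to 31.4, 21.4 to 25.4 and 25.0 to 31.4 CPM in that order, resident macrophages (mostly Icam2, separate in all 3 genotypes) to 7.64 to 8.14, 6.88 to 7.63 and 5.96 to 6.40 CPM, T and NK cells to 4.35 to 4.95, 5.50 to 5.82 and 5.67 to 6.52 CPM, dendritic cells to 1.67 to 2.10, 1.99 to 3.57 and 2.28 to 2.58 CPM, B cells to 0.466 to 0.932, 1.22 to 1.44 and 1.08 to 1.82 CPM, and mast cells and basophils to 0.116 to 0.245, 0.0882 to 0.153 and 0.117 to 0.605 CPM. Most of the T and NK sum was Cd4, which averaged 4.02 CPM in SE, 5.25 CPM in SA and 5.46 CPM in WT. In that list Cd3e, Cd3g, Nkg7, Gzma and Ncr1 were at 0. Lck stood in another order, averaging 0.436 CPM in SE, 0.166 CPM in SA and 0.249 CPM in WT. Promoter sequences are those of RefSeq (GRCm38.p6). Shares of 75-base windows found in other genes were counted between the annotated transcripts of GENCODE M21, on both strands. The genome outside these transcripts was not searched.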

Additional observations from a re-analysis of the deposited data

How the results depend on the processing

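Of 17 member calls, 3 (Gstm1 in SA against WT, Me1 and Cat in SE against WT) held under all 17 alternatives, 14 were lost under at least 1, and none reversed; the cause was not tested. With 1 library or 1 of the pairs left out, the counts of called members ran from 1 to 10 in SA against WT, 3 to 7 in SE against WT and 2 to 8 in SE against SA, those of the further lists from 3 to 8, 4 to 18 and 7 to 22, and those of all genes from 297 to 903, 292 to 1215 and 781 to 1903, against 549, 680 and 1376 in the full fit. Library totals alone left 4 called members in SA against WT, and the pair SE2 and WT1 left out gave 3. That pair gave 372 genes and 7 of the further list genes in SE against WT. Without SE3 and WT2 there were 903 genes in SA against WT, 1215 in SE against WT, and 22 further list genes in SE against SA. A minimum of 5 CPM left 3 further list genes in SA against WT, and a fit of only the 2 genotypes gave 438 genes in SE against WT. The labels do not say that replicate numbers pair the libraries, and no pairing was seen. Same-numbered libraries correlated at -0.195 to 0.105 in their deviations, and not every library correlated best with its own number. As deviations cancel within a genotype, these correlations cannot exclude a pairing. With the replicate block, 5, 4 and 5 members were called in SA against WT, SE against WT and SE against SA, with 500, 568 and 1189 genes in all and 8 further list genes in SE against WT. Depth limits Mgst2, Chac1, Nxn and Sod3, whose calls rest on 1 to 54 counts per library.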
